A study of Glycine max with 8 samples.

Results

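Salt-treated soybean seedlings that over-express GmSIN1 were compared with salt-treated wild-type seedlings. The comparison uses 4 of the 8 RNA-seq libraries of the series, chosen by their labels. The OE NaCl group (2 libraries) carries the genotype GmSIN1 over-expression and received 150 mM NaCl for 6 h. The WT NaCl group (2 libraries) carries the genotype GmSIN1 wildtype, in the conventional line WEI6823, and received the same treatment. The other 4 libraries, OE mock and WT mock, had a mock treatment for 6 h and are used to estimate the spread and for values set beside those in salt. All seedlings were 2 weeks old and grown in hydroponic solution, and each library holds equal parts of root and leaf RNA. The promoter of the transgene, the number of transgenic lines and the line from which the OE seedlings were derived are not stated in the labels, so the transgene and the genetic background cannot be told apart. In mixed organs, fewer cells of a type and less RNA per cell cannot be told apart either.

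NAC proteins are plant transcription factors that share a DNA-binding domain at their amino end, and many of them act in responses to drought, salt and abscisic acid. GmSIN1 is known as a salt-induced NAC gene of soybean that promotes root growth, together with genes for abscisic acid synthesis and for NADPH oxidases that make reactive oxygen. Salt in the root medium first limits water uptake and later loads cells with sodium, and within hours seedlings change transcripts for ion transport, osmolytes and hormone responses. Soybean is an old polyploid, so many genes have close copies whose reads are hard to separate.

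The deposited files identify each transcript by a locus ID and do not pair it with a gene name. None of the IDs matched an entry of the reference gene table (0 of 47268 loci), so GmSIN1 itself was not assigned to a locus. Root and leaf markers and the genes of abscisic acid synthesis and reactive oxygen were not assigned either, and their levels are not analysed here. Loci are therefore described by level, size of difference, chromosome and coding length, and 2 IDs are printed in each direction. Total expected counts were 6702767 and 6466660 in OE NaCl libraries 1 and 2, and 7199775 and 6753556 in WT NaCl libraries 1 and 2. Levels are given as CPM, which are expected counts scaled to library size with edgeR's TMM factors.

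The salt-treated WT libraries were far closer to each other than the salt-treated OE libraries were. Among 18474 loci with a mean of at least 10 CPM over the 4 NaCl libraries, 4195 (22.7%) lay 2-fold or more apart between the OE NaCl libraries. Between the WT NaCl libraries 6 (0.0325%) did, on the log2(CPM + 1) scale in both cases. Over all loci tested the difference between the 2 libraries of a group had an SD of 0.982 in OE NaCl and of 0.275 in WT NaCl on that scale. For this reason each OE library is set against WT separately below, and only loci whose OE NaCl libraries both lie above, or both below, both WT NaCl libraries are described as higher or lower.

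Which loci differed between salt-treated OE and WT seedlings was asked across 34023 loci. In OE NaCl 1232 loci (3.62% of those tested) were higher and 1454 (4.27%) lower than in WT NaCl, together 2686 (7.89%) (edgeR quasi-likelihood test, Benjamini-Hochberg threshold 0.05). All 2686 loci called by this fit had both OE NaCl libraries on the same side of both WT NaCl libraries. Among all loci tested the groups were apart in this way at 9102 higher loci (26.8%) and 9986 lower loci (29.4%). These numbers include the called loci and are far larger than the numbers called. The remaining 14935 loci (43.9%) had overlapping groups and are given no direction. The median fitted log2 fold change over all loci tested was 0.02. The count of calls depended on the libraries and the tool: without either WT NaCl library edgeR called 0 loci (5099 or 5102 at an unadjusted p under 0.05), without WT mock library 1 or 2 it called 495 or 516, without OE NaCl library 1 it called 7204, and DESeq2 called 4590. Which direction had more loci also depended on the setting. Higher loci were the more numerous with DESeq2 (2789 higher and 1801 lower), voom with a weight per genotype (2115 and 1466), RLE scaling (1312 and 1277), upper-quartile scaling (1420 and 1265) and no filter (1387 and 1292), while limma-voom called 709 higher and 1386 lower loci.

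In OE NaCl library 1 the 1232 higher loci lay a median of 1.80 above the WT NaCl mean on the log2(CPM + 1) scale, with the middle 50% of loci between 1.29 and 2.57. In OE NaCl library 2 the median was 1.92, with the middle 50% between 1.40 and 2.79. The 1454 lower loci lay at medians of -1.39 and -1.42 from the WT NaCl mean in OE NaCl libraries 1 and 2. Over all loci tested the medians were -0.03 and -0.01. Both OE NaCl libraries were at least 2-fold away from the WT NaCl mean at 1048 of the higher and 1018 of the lower loci. The test weighs the distance between the OE libraries, so likeness of these medians is part of how the loci were called.

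**Figure D1:**
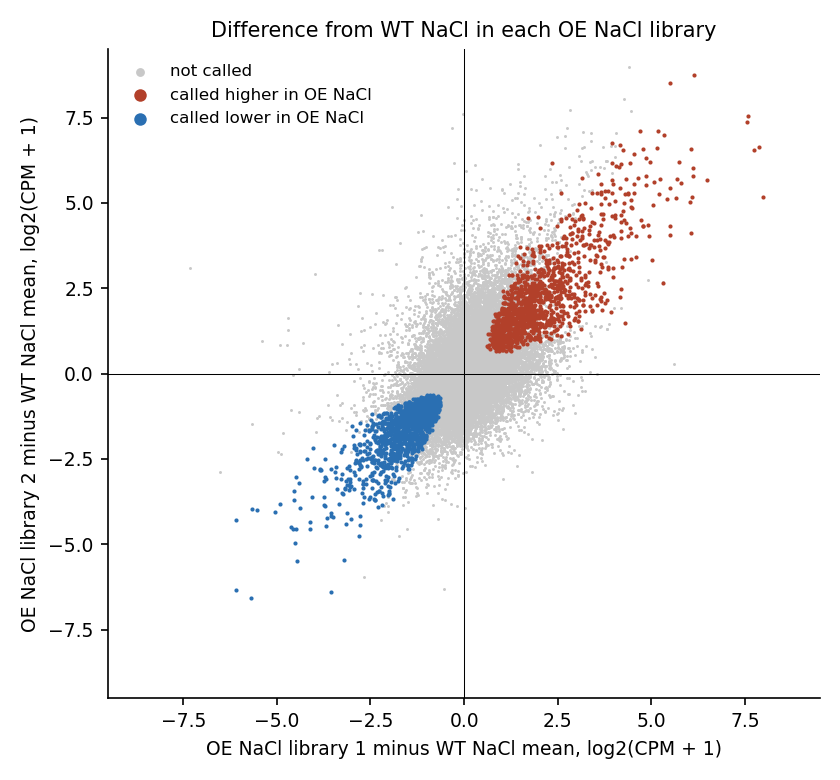
Each point is a locus; the horizontal axis gives OE NaCl library 1 minus the WT NaCl mean and the vertical axis OE NaCl library 2 minus the same mean, on the log2(CPM + 1) scale. The 1232 loci called higher lie in the upper right, the 1454 called lower in the lower left, and grey loci were not called.

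The higher loci carried a far larger share of all counts in OE than in WT. Together they held 7.13% and 7.46% of the counts of all tested loci in OE NaCl libraries 1 and 2, and 1.78% and 1.77% in WT NaCl libraries 1 and 2. The lower loci held 3.44% and 2.94% of the counts in OE NaCl, and 9.63% and 9.58% in WT NaCl. In each case both OE NaCl libraries lay on one side of both WT NaCl libraries, and the WT NaCl libraries were nearly equal. These shares restate the rule by which the loci were called and are a description of their weight. The direction rule did not use the mock libraries, but they entered the estimate of spread behind the calls and are not an independent repeat. The mock libraries held 6.07% and 7.60% of their counts at the higher loci in OE mock, against 1.82% and 1.80% in WT mock. At the lower loci they held 3.55% and 2.95% in OE mock and 9.5% and 9.54% in WT mock.

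**Figure D2:**
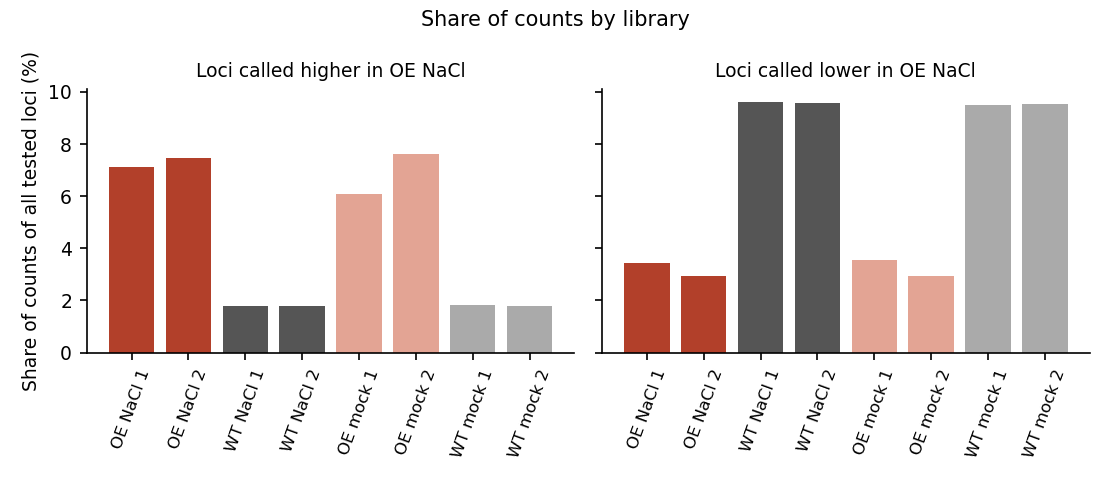
Bars give the share of the counts of all tested loci, in percent, that the loci called higher (left) or lower (right) in OE NaCl held in each of the 8 libraries. The higher loci held 7.13% and 7.46% in the OE NaCl libraries against 1.78% and 1.77% in the WT NaCl libraries.

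Over all called loci, higher loci differed by larger factors than lower loci did, but the directions were not compared at like WT counts. With a group under 3 counts set at 3 counts over its libraries, the group means differed by a median of 5.43-fold at the higher loci and 2.86-fold at the lower loci. At 762 higher and 425 lower loci the difference was at least 4-fold, and at 406 higher and 105 lower loci at least 10-fold. It was at least 50-fold at 105 higher and 3 lower loci, and at least 100-fold at 51 higher loci and 1 lower locus. At the 406 higher loci with at least 50 counts in each WT NaCl library the median was 2.82-fold, close to that of all lower loci. The median factor was thus smaller at these loci than at all higher loci, though the largest among them was 84-fold. The same cut was not applied to the lower loci, and choosing higher loci by ample WT counts itself tends to lower their factor. No test was made of the difference between the directions.

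The locus with the widest separation among the higher loci was Glyma.07G243500 on chromosome 7, with 2 gene models and a longest coding length of 498 bases. It had 491 and 471 CPM in OE NaCl libraries 1 and 2, and 1.65 and 1.46 CPM in WT NaCl libraries 1 and 2. The groups did not overlap, and the OE NaCl libraries were nearly equal to each other. OE NaCl averaged 481 ± 14.5 CPM, against 1.55 ± 0.135 CPM for WT NaCl (SD, n = 2 each). On the log2 scale the fitted difference was 8.26 ± 0.53 (standard error; edgeR adjusted p = 0.00267). Its 21 counts over the WT NaCl libraries put the depth-corrected ratio of counts at 325, and counting error alone allows 212 to 525 (exact 95% interval). In mock it had 234 and 536 CPM in OE mock, against 0.821 and 0.577 CPM in WT mock.

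Glyma.07G243700, close by on chromosome 7 (coding length 486 bases), ranked second. It had 187 and 163 CPM in OE NaCl libraries 1 and 2, and 0 counts in both WT NaCl libraries. Its mean of 175 ± 16.8 CPM (SD, n = 2) in OE NaCl is at least 829-fold higher when WT NaCl is set at 3 counts over the group (edgeR adjusted p = 0.00412). Set against the same floor, the bound was 881-fold from OE NaCl library 1 and 769-fold from library 2. It was not at 0 counts in every WT library, since the WT mock libraries had 2.29 and 3.96 expected counts. Those counts are fractional, so whether they came from this locus is uncertain. The OE mock libraries had 79.8 and 188 CPM.

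The single locus tested between this pair (coding length 477 bases, chosen for its place after the pair was known) did not follow them in both OE libraries. It had 3.82 and 66.5 CPM in OE NaCl libraries 1 and 2, and 2.20 and 1.46 CPM in WT NaCl. The groups were apart, but OE NaCl library 1 lay close to WT, and the difference did not pass the test (log2 fold change 4.24, standard error 1.78, edgeR adjusted p = 0.179). Both named loci and the one between them have fractional counts, so reads were divided with other gene models and their single levels are uncertain.

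Among the lower loci Glyma.13G095000 on chromosome 13 (coding length 864 bases) had the widest separation. It had 0.566 and 0.327 CPM in OE NaCl libraries 1 and 2, from 4 and 2.33 expected counts, and 111 and 101 CPM in WT NaCl. Corrected for depth, WT NaCl had 234 times the counts of OE NaCl, and counting error alone allows 107 to 639 (exact 95% interval; edgeR adjusted p = 0.00267). It did not stand alone. It belongs to a run of 4 neighbouring tested loci on chromosome 13 that were all lower in OE NaCl, with fitted log2 fold changes of -7.82 to -3.64. Their summed level was 2.97 and 9.47 CPM in OE NaCl libraries 1 and 2, and 304 and 293 CPM in WT NaCl. All 4 loci of the run have fractional counts.

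Glyma.20G115900 on chromosome 20 (coding length 447 bases) was next. It had 2.97 and 1.14 CPM in OE NaCl libraries 1 and 2, and 207 and 200 CPM in WT NaCl. The OE NaCl libraries were both far below WT, though library 1 was more than 2-fold above library 2. OE NaCl averaged 2.06 ± 1.29 CPM, against 203 ± 4.94 CPM for WT NaCl (SD, n = 2 each). The fitted log2 difference was -6.59 ± 0.56 (standard error; edgeR adjusted p = 0.00412). In mock the values were 2.38 and 0.801 CPM in OE mock and 210 and 218 CPM in WT mock. All 4 named loci lost their call without either WT NaCl library, with edgeR adjusted p-values up to 0.0648.

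**Figure D3:**
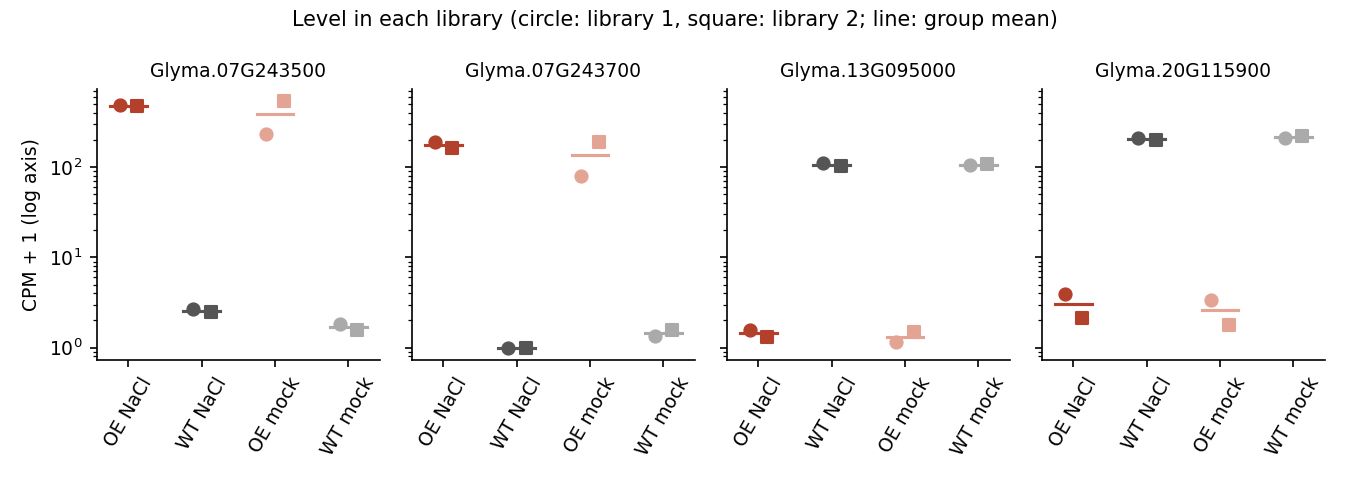
Points give CPM + 1 on a log axis in each of the 8 libraries for the 4 named loci, circles for library 1 and squares for library 2, with a line at the group mean. Glyma.07G243500 and Glyma.07G243700 are high in every OE library, and Glyma.13G095000 and Glyma.20G115900 are low in every OE library.

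The loci ranked 3 to 8 by the same separation show that a wide gap from WT did not always come with equal OE libraries. A locus on chromosome 5 with a coding length of 213 bases had 1050 and 453 CPM in OE NaCl libraries 1 and 2, against 3.29 and 4.51 CPM in WT NaCl. A locus on chromosome 15 with a coding length of 1809 bases had 125 and 771 CPM in OE NaCl, against 0.824 and 0.728 CPM in WT NaCl. The first was higher in OE NaCl library 1 and the second in library 2. A locus on chromosome 11 with a coding length of 1491 bases, whose counts were whole in all libraries, had 102 and 96.4 CPM in OE NaCl and 0.549 and 0.437 CPM in WT NaCl. Among the lower loci, one on chromosome 18 (coding length 963 bases, whole counts) had 1.27 and 1.31 CPM in OE NaCl, against 52.4 and 53.6 CPM in WT NaCl. One on chromosome 12 with 5 gene models (longest coding length 2079 bases, whole counts) stood at 2.69 and 0.817 CPM in OE NaCl, against 84.4 and 76.1 CPM in WT NaCl. Counts are called whole within 0.01 of a whole number in all 8 libraries.

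The loci that shifted the most counts were other ones, named here by size of difference in mean CPM after their values were seen. The largest gain was at a locus on chromosome 9 (coding length 771 bases), with 1080 and 3420 CPM in OE NaCl libraries 1 and 2 and 27.2 and 24.3 CPM in WT NaCl. Next came one on chromosome 14 (870 bases), with 2430 and 3030 CPM in OE NaCl and 599 and 593 CPM in WT NaCl. A locus on chromosome 18 (1332 bases) had 4070 and 1450 CPM in OE NaCl and 669 and 677 CPM in WT NaCl, with OE NaCl library 1 well above library 2. The largest loss was at a locus on chromosome 8 (1458 bases), with 855 and 995 CPM in OE NaCl and 2130 and 2020 CPM in WT NaCl. Another on chromosome 5 (3294 bases) had 338 and 293 CPM in OE NaCl and 1070 CPM in each WT NaCl library. A locus on chromosome 19 (1185 bases) had 174 and 186 CPM in OE NaCl and 873 and 881 CPM in WT NaCl. The groups did not overlap at any of these 6 loci, and their edgeR adjusted p-values lay between 0.00654 and 0.0473.

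At 101 of the higher loci no count was found in either WT NaCl library. In OE NaCl library 1 they ranged from 1.56 to 187 CPM with a median of 4.67, and in library 2 from 1.31 to 163 CPM with a median of 5.88. Against a floor of 3 counts over the WT NaCl group (0.212 CPM), their differences were at least 8.23-fold to at least 829-fold, with a median bound of 25.4-fold. In the WT mock libraries 58 of them also had 0 counts, and the others had up to 7.29 counts in all. Their median longest coding length was 984 bases, and 68.3% had fractional counts, compared with 87.1% of all loci tested. A count of 0 passes as whole, so choosing loci with 0 counts in WT NaCl itself lowers this share. The reverse was rarer, with 9 lower loci at 0 counts in both OE NaCl libraries. These had 1.51 to 9.88 CPM in WT NaCl library 1 and 1.31 to 12.8 CPM in library 2, and 5 of them had 0 counts in OE mock too. A count of 0 at this depth does not show that a locus is absent.

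Some called loci had OE NaCl libraries that agreed in direction and differed in size. These libraries were more than 2-fold apart at 225 higher loci (18.3%) and 89 lower loci (6.12%), and at 24.5% of all loci tested, a difference that the test itself favours. Library 2 was the higher at 163 of these 225 loci and library 1 at 62. At the 89 lower loci library 1 was the higher at 63 and library 2 at 26, so library 2 was more often the one farther from WT. The widest case was a higher locus on chromosome 11 (coding length 1740 bases), with 70.5 and 1010 CPM in OE NaCl libraries 1 and 2 and 13.3 and 12.8 CPM in WT NaCl. In the lower direction it was a locus on chromosome 2 (1167 bases), with 26.2 and 2.78 CPM in OE NaCl and 308 and 325 CPM in WT NaCl.

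Many loci with a large difference in both OE libraries were not called. On the log2(CPM + 1) scale 1990 loci (5.85%) were at least 2-fold higher in both OE NaCl libraries than the WT NaCl mean, and 1398 (4.11%) at least 2-fold lower. Of these, 942 and 380 did not pass the test. A further 229 loci were 2-fold higher in one OE NaCl library and 2-fold lower in the other, 97 with library 1 up and 132 with library 2 up. Of these 229 loci edgeR called 0, and they are given no direction.

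The same loci were then read in the mock libraries, which share no library with the salt comparison but share its estimate of spread. Of the 1232 higher loci, 1230 had both OE mock libraries above both WT mock libraries, where 32.5% of all loci tested did. Of the 1454 lower loci, 1450 had both OE mock libraries below, where 32.9% of all loci tested did. The deviation of an OE NaCl library from its group mean resembled that of the OE mock library with the same number (Pearson r of 0.744 across the 34023 loci, which are not independent replicates), so the mock libraries are not an independent repeat. The higher loci lay a median of 1.54 and 1.95 above WT mock in OE mock libraries 1 and 2 on the log2(CPM + 1) scale. For the lower loci the medians were -1.29 and -1.38.

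**Figure D4:**
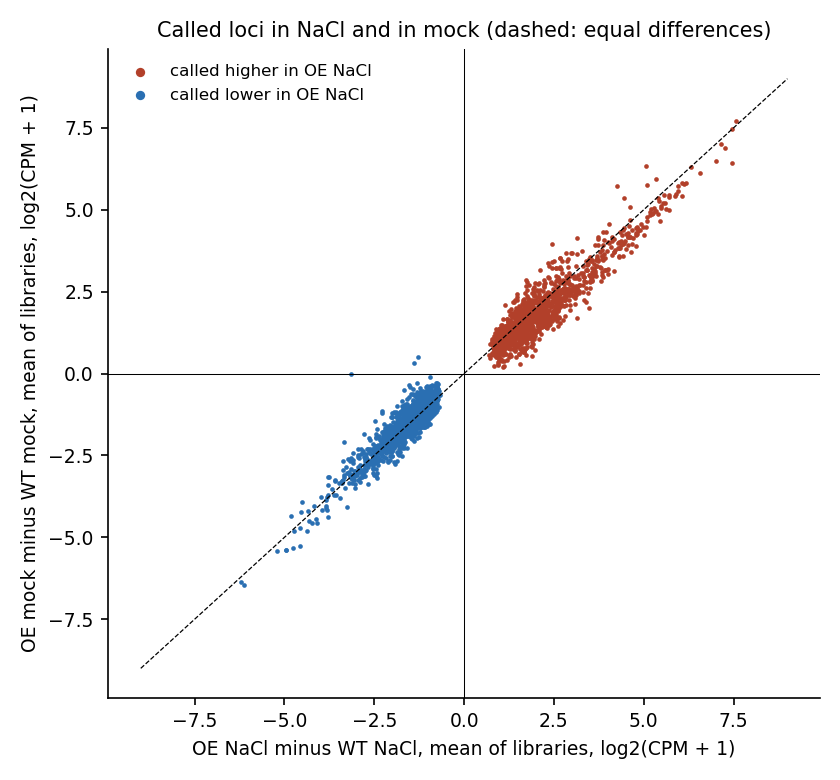
Each point is a locus called in salt; the horizontal axis gives OE NaCl minus WT NaCl and the vertical axis OE mock minus WT mock, both as means of libraries on the log2(CPM + 1) scale. Of the 1232 higher loci 1230, and of the 1454 lower loci 1450, had groups apart in the same direction in mock.

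Whether the genotype difference in salt differed from that in mock was tested as an interaction. edgeR's quasi-likelihood test called 0 of 34023 loci (0%), with 231 (0.679%) at an unadjusted p under 0.05, and DESeq2 and limma-voom called 0. Evenly spread p-values would put 5% under 0.05, so this fit gave few small p-values, and it treats OE libraries of the same number as independent although their deviations were alike. With the OE library number as a term, added after the data were seen, edgeR again called 0 loci, with 1969 at an unadjusted p under 0.05. Of the called loci, 934 higher and 1140 lower ones were also called in mock, where 4.2% of all loci tested were called higher and 4.72% lower. The other 298 higher and 314 lower loci passed in salt and not in mock. Nearly all of them leaned the same way in mock, with groups apart in the same direction at 296 and 310 loci. Their median fitted log2 fold change was 2.20 in salt and 1.49 in mock for the higher loci, and -1.22 in salt and -0.77 in mock for the lower loci. No locus is therefore described as particular to salt, which does not show that the genotype differences were equal. The count of 0 also depended on the libraries, since the interaction called 57 loci without OE NaCl library 2, 198 without both OE libraries numbered 1 and 5468 without both numbered 2, the last 2 with no replicates left in the OE groups.

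The few loci that broke this pattern were looked up after the fact. A higher locus on chromosome 10 (coding length 1008 bases) had 6.09 and 6.04 CPM in OE NaCl and 1.51 and 1.31 CPM in WT NaCl, but 4.46 and 3.04 CPM in OE mock and 2.46 and 3.17 CPM in WT mock. A lower locus on chromosome 2 (1974 bases) had 11.2 and 9.64 CPM in OE NaCl and 21.4 and 20.8 CPM in WT NaCl, but 20.5 and 14.4 CPM in OE mock and 17.2 and 20.3 CPM in WT mock. Groups were apart in salt and overlapped in mock at both. A lower locus on chromosome 13 (2328 bases) was seen in WT NaCl alone, at 9.88 and 6.26 CPM, and had 0 counts in OE NaCl, OE mock and WT mock. The interaction did not pass adjustment at the loci on chromosomes 10 and 2. At the chromosome 13 locus it cannot decide, because both mock groups had 0 counts and their difference could not be estimated.

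The share of lower loci differed with level more than that of higher loci did. Loci were ranked by CPM per kilobase of longest coding length, averaged over the 4 NaCl libraries, and divided into quartiles. In the lowest quartile, up to 4.15 CPM per kilobase, 278 loci (3.27%) were higher and 94 (1.11%) lower in OE NaCl. The second quartile contained 307 higher loci and 249 lower ones, and the third 321 higher and 473 lower. In the highest quartile, from 23.0 CPM per kilobase upward, 326 loci (3.83%) were higher and 638 (7.50%) lower. The share of higher loci was thus nearly level across quartiles, while that of lower loci was larger at each step. The level includes the OE NaCl libraries, so the ranking and the calls share values. A call in itself moves a higher locus up and a lower locus down in level. Counting error is larger at low levels, and the part of either in this pattern was not tested.

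**Figure D5:**
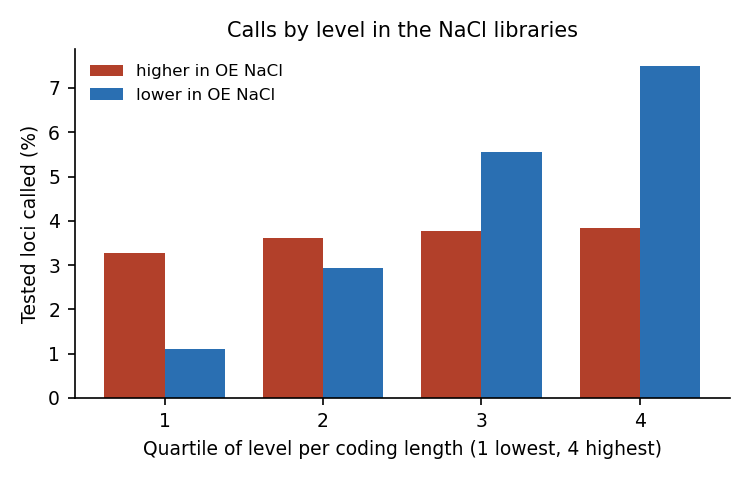
Bars give the percentage of tested loci called higher or lower in OE NaCl in each quartile of CPM per kilobase of longest coding length. The percentage of higher loci stays between 3.27% and 3.83%, while that of lower loci goes from 1.11% in the lowest quartile to 7.50% in the highest.

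Called loci lay on all 20 chromosomes. Higher loci made up 2.32% (chromosome 20) to 4.30% (chromosome 18) of the loci tested there, and lower loci 3.06% (chromosome 5) to 4.99% (chromosome 17). Scaffolds outside the chromosomes held 7 higher and 7 lower loci of 191 tested. The median longest coding length was 1165.5 bases at higher loci, 1294.5 bases at lower loci and 1185 bases over all loci tested. Higher loci had a single gene model in 68.5% of cases and lower loci in 63.0%, against 63.2% of all loci tested. No test was made of these shares.

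In the order of their IDs, called loci had a neighbour of the same direction more often than tested loci as a whole did. Most called loci had no such neighbour, and no test was made of these shares. A neighbour of the same direction was found at 161 of the higher loci (13.1%) and 198 of the lower loci (13.7%). Of all tested loci on chromosomes, 7.08% were next to a higher and 8.31% next to a lower locus. Neighbours of the opposite direction occurred at 7.27% of the higher and 6.36% of the lower loci. Runs of 3 or more numbered 7 in each direction. The longest higher run held 5 loci on chromosome 8, with a summed level of 151 and 117 CPM in OE NaCl libraries 1 and 2 and 6.86 and 8.73 CPM in WT NaCl, and only 2 of the 5 had fractional counts. The longest lower run held 5 loci on chromosome 17, with 13.2 and 25.6 CPM in OE NaCl and 305 and 304 CPM in WT NaCl, and all 5 had fractional counts. A run of 3 higher loci on chromosome 3 had 113 and 68.4 CPM in OE NaCl and 0 counts in both WT NaCl libraries. The part of fractional counts in these runs was not tested.

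Where a called locus had 2 or more tested gene models, most models lay on the same side as the locus, whose count is the sum of theirs. At 291 higher loci with 758 such models, 572 models had both OE NaCl libraries above both WT NaCl libraries, 177 overlapped and 9 lay the other way. At 469 lower loci with 1295 models, 1052 models lay below, 231 overlapped and 12 lay above. Of all 48983 models tested, 24.7% lay above and 26% below. All tested models lay on the side of their locus at 156 of the 291 higher and 288 of the 469 lower loci. When models were tested as units, edgeR called 93 of the 758 models higher and 0 lower, and 212 of the 1295 lower and 1 higher, where 0.862% of all models tested were called higher and 1.34% lower. Division of reads among models of a locus is estimated, so single models carry more error than the sum.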

How the data were processed

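mRNA libraries were sequenced from seedlings and transcripts measured in 8 samples. Expected counts per gene model were made with RSEM, per the submitters' processing notes. RSEM's version, the read aligner, strandedness, build and annotation: not given in the sources used here. Every table the authors deposited also holds an FPKM column, left unused, and lengths that are all multiples of 3, hence coding lengths, per the file headers and values. For each locus the expected counts of its models were added up (absent = 0), then rounded; totals were 5980170 to 7199775 per library. R 4.3.3 with edgeR 4.0.16 (filterByExpr, TMM, glmQLFit, glmQLFTest, 1 coefficient per group, all 8 libraries, Benjamini-Hochberg) gave 34023 tested loci; DESeq2 1.42.0 and limma 3.58.1 were alternatives. Standard errors come from the F statistic. The design text of the series calls the libraries biological replicates without saying whether they came from separate plants. The p-values therefore reflect only how far these libraries differ, which may be technical. They rest on 1 spread per locus for all groups, although the OE NaCl libraries differed far more than the WT NaCl libraries. OE NaCl and OE mock libraries of equal number also had alike deviations (Pearson r of 0.744). The libraries behind the 2686 calls are thus not all independent. Intervals cover counting error only. Floors (3 counts over a group) cover that of the group near 0 only, and the counts of the other group enter the bounds without error.

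Members and lists were chosen with earlier results of these data known. The 2 IDs in each direction were those called loci with the largest distance on the log2(CPM + 1) scale between the nearest OE NaCl and WT NaCl libraries; rules needing gene names, and 24 gene lists, found no locus, since the reference gene table (Glycine_max_v4.0) pairs none of these IDs. Neighbours, runs, models, level quartiles and loci described without ID were chosen after the data were seen. Scripts were tested on simulated counts, with a pass rule on the median fitted fold change alone. OE libraries were drawn independently there, unlike in the data, so that test does not bear on the count of calls.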

Additional observations from a re-analysis of the deposited data

Results flagged for a closer look

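A single called locus lay in opposite directions in salt and in mock. It is on chromosome 13 (coding length 204 bases) and had 0 counts in both OE NaCl libraries, against 1.51 and 1.31 CPM in WT NaCl. In mock it had 1.49 and 3.68 CPM in OE mock, against 1.48 and 1.30 CPM in WT mock, so OE mock library 1 was barely above WT. The genotype log2 fold change in salt minus that in mock was -7.14, a fitted value that is no bound because OE NaCl is at 0. Against a floor of 3 counts over OE NaCl, WT NaCl library 1 alone puts the locus at least 6.64-fold lower in OE. WT NaCl library 2 alone puts it at least 5.76-fold lower, and both bounds leave out the counting error of the few WT counts. The interaction gave an unadjusted 0.00257 as its p in edgeR and did not pass Benjamini-Hochberg adjustment. Its levels are near the counting floor in all 8 libraries, and its counts are fractional.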

How the results depend on the processing

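The count of 2686 loci stayed within 1.5 times under RLE scaling (2589), a 2-fold minimum (2418), upper-quartile scaling (2685), no filter (2679), limma-voom (2095) and voom with a weight per genotype (3581). A filter of 1 CPM in 2 libraries and a total of 40 gave 2633 calls. It kept more loci (34972) than the main filter (34023), and no filter that keeps fewer was tried. The count was 4590 with DESeq2, 173 with only the 4 NaCl libraries and 1076 of 48983 with gene models as units. With 1 library left out in turn it ran from 0 to 7204. Leaving out both OE libraries numbered 1 or 2, added after the data were seen, gave 19350 and 16168 calls, since the fit then has no replicates within OE groups and takes its spread from WT. The replicate number as a block gave 4105 calls; deviations of equal-numbered OE NaCl and WT NaCl libraries had a correlation of 0.0091, so the numbers do not pair them. The interaction called 0 loci under every scaling, filter, tool and block tried and with the OE library number as a term, 0 to 57 with 1 library left out, and 198 and 5468 without the OE libraries numbered 1 or 2. Each of the 4 named loci kept its direction and call in 17 of 19 alternatives and lost the call without either WT NaCl library. A lone library was assumed to vary like the other groups. Alternatives for gene lists were not run, as no locus has a gene name. The interaction was not run for voom with a weight per genotype or for gene models as units. Its 0 calls therefore do not cover these settings. The 4 NaCl libraries alone cannot give an interaction, as they include no mock library. Depth limits loci near 1 CPM; the other causes of these shifts were not tested.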
